A study of Homo sapiens with 12 samples.

Results

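C4-2 is a subline of the human prostate cancer line LNCaP that was derived from tumours grown in castrated mice, and it grows without the androgen that its parent depends on. The comparison described here sets 3 C4-2 libraries against 3 LNCaP libraries and covers every gene with enough counts to test, 15407 of the 57992 entries in the count table, without restriction to a pathway. The libraries were 6 of the 12 samples of a study of enzalutamide resistance, in which poly(A) RNA of enzalutamide-sensitive and enzalutamide-resistant prostate adenocarcinoma lines was sequenced. Enzalutamide is an antiandrogen. The labels give both LNCaP and C4-2 as sensitive, name no drug, hormone or serum treatment for either, and state no passage or clone. The replicates of a line are called biological replicates, and nothing says whether they came from separate cultures, so the p-values measure the spread between libraries. MR49F, a resistant derivative of LNCaP with 3 libraries, serves as a reference level. Its libraries also entered the fit, and so the filter on counts, the scaling and the estimate of spread. With the 6 libraries of LNCaP and C4-2 alone, 7170 of 14948 tested genes passed.

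Prostate luminal cells depend on androgen, which turns on secretory genes such as KLK3, which encodes prostate-specific antigen. Androgen is removed in these cells by UGT2B glucuronosyltransferases, which couple it to glucuronic acid. Castration-resistant cells grow when little androgen is present, and C4-2 and LNCaP have long served as a pair in which parent and derivative share their origin.

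Depth was unequal. The 3 LNCaP libraries and C4-2 replicates 2 and 3 held 6990461 to 8989245 counts each, and C4-2 replicate 1 held 42770072. Expression is given as counts per 1000000 (CPM) on scaled library sizes. Among genes averaging 10 CPM or more, the median coefficient of variation between replicates was 4.86% in LNCaP and 9.44% in C4-2. Across genes, which are no independent replicates, log2 CPM correlated at 0.987 to 0.993 between libraries of a line and at 0.924 to 0.929 between the lines. Defining markers of luminal prostate epithelium (KRT8, KRT18, HOXB13, KLK3 and FOLH1) were present in all 6 libraries. Of the markers of other cells, KRT5 (basal), PTPRC and CD3E (immune), CDH5 (endothelial) and CHGA (neuroendocrine) had no count in any. The basal KRT14, at 1.105 CPM in LNCaP and 1.16 CPM in C4-2, the endothelial VWF, at 3.92 and 2.94 CPM, and the neuroendocrine SYP, at 2.51 and 3.35 CPM, were counted in every library. The summed level of 16 fibroblast and smooth muscle markers was 45.0 to 48.8 CPM in LNCaP and 93.5 to 114 CPM in C4-2, of which VIM made 6.91 and 53.6 CPM on average. Of these markers 7 were tested, and VIM, TAGLN, COL3A1 and PDGFRB were over 2-fold higher while COL1A1 and LUM were lower. COL3A1 rose from 1.77 to 6.05 CPM, 4 of the 16 had no count in any of the 6 libraries, and DCN had at most 2 counts in a library. The summed level of 16 immune markers was 0.414 to 1.59 CPM in LNCaP and 4.68 to 6.29 CPM in C4-2, with 6 of the 16 at 0 in all 6 libraries. CD8A, the one tested, rose from 0.157 to 3.36 CPM. For 16 basal markers the sum was 247 to 259 CPM in LNCaP and 298 to 387 CPM in C4-2, and for 12 endothelial markers 3.52 to 5.24 and 3.29 to 4.395 CPM. The parts of these marker shifts in the results that follow were not tested, and in bulk RNA fewer cells with a transcript cannot be told apart from less transcript per cell.

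The lines differed over a large share of the transcriptome, and the large differences leaned towards C4-2. At an adjusted p under 0.05, 7658 genes passed, which is 49.7% of those tested. Of these, 4033 (26.2%) were higher and 3625 (23.5%) lower in C4-2. Beyond a 2-fold difference the directions separated, with 1405 genes (9.12%) higher and 629 (4.08%) lower, 13.2% together. Beyond 8-fold, 326 were higher and 94 lower. The excess of large increases was present at every level of expression: among genes of 1 to 10 CPM 844 were over 2-fold higher and 366 lower, and among genes over 100 CPM the counts were 82 and 34. The 3 libraries of one line lay entirely above or below those of the other for 55.7% of tested genes. The median log2 fold change over all tested genes was -0.0012, and all medians below are read against it. Counts of higher and lower genes in the lists and families below are read against the 26.2% and 23.5% of all tested genes.

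**Figure D1:**
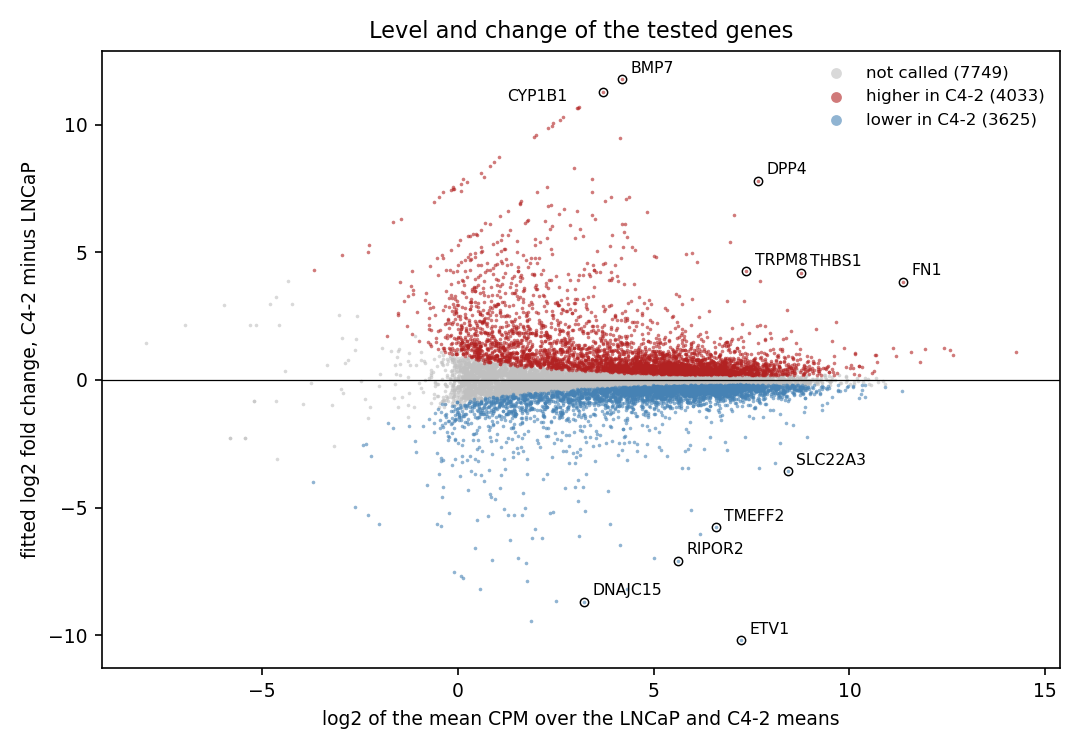
Fitted log2 fold change of C4-2 over LNCaP (vertical axis) against the log2 of the average of the mean CPM values of the lines (horizontal axis) for the tested genes with a count in either line. Red points are the 4033 genes that passed as higher in C4-2, blue points the 3625 that passed as lower and grey points the rest, and circles mark 11 genes described in the text. Points beyond 5 log2 units are more numerous above the line at 0 than below it.

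Some of the largest differences were genes with no or almost no transcript in LNCaP. With at most 3 counts over the 3 LNCaP libraries and at least 5 CPM in C4-2 as the rule, 30 genes were off in LNCaP, 25 of them protein-coding, and 12 had no LNCaP count at all. By the mirrored rule 6 genes were off in C4-2. The rule is stricter for C4-2 because its deep library can give a stray count. With off set at a mean under 0.1 CPM in place of a count, 25 and 7 genes met it. Of the 30 genes off in LNCaP, 12 were also off in MR49F and 5 reached at least 5 CPM there.

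BMP7 (ENSG00000101144, chromosome 20, 57168748 to 57266629 in GRCh38), a secreted growth factor of the bone morphogenetic protein family, led these genes. It had no count in the LNCaP libraries and 39.4, 34.3 and 35.9 CPM in C4-2 replicates 1 to 3. Set against a floor of 3 counts over the 3 LNCaP libraries, it was at least 324-fold higher. MR49F held 0.219, 0 and 0 CPM. Of 43 tested TGF-beta and BMP genes, BMP7 among them, 21 were higher, 5 lower and 17 did not pass. Of the 21, 10 were higher by more than 2-fold, and 0 of the 5 were lower by that much. Over all tested genes 26.2% were higher and 23.5% lower. The median log2 fold change of the 43 was 0.39. The median was 0.20 without C4-2 replicate 1, and 2 genes were lower without LNCaP replicate 1 or replicate 2. BMP8B rose from 1.85 ± 0.175 to 12 ± 0.534 CPM (SD, n = 3 each) and ID4, an inhibitor of helix-loop-helix factors, from 1.403 ± 0.459 to 10.4 ± 2.46 CPM, while the receptor BMPR2 was at 219 and 191 CPM (adjusted p = 0.0726). BMPR2 passed as lower with voom (-0.23) and without C4-2 replicate 2 (-0.29).

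CYP1B1, a cytochrome P450 that hydroxylates oestrogens and polycyclic hydrocarbons, had no LNCaP count and 22.7, 26.7 and 28.5 CPM in C4-2, at least 203-fold higher. Its relative CYP1A1 rose from 4.699, 5.34 and 6.89 to 31.1, 23.7 and 28.9 CPM (log2 fold change 2.34, SE 0.173, adjusted p = 5.17e-10). CYP4F8, a fatty acid hydroxylase, went from no count to 11.98, 11.9 and 12.4 CPM, and its neighbours on chromosome 19, CYP4F12 and CYP4F11, were higher as well. Of 20 tested genes with a symbol starting CYP, 12 were higher and 2 lower.

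Further genes had no count in any LNCaP library. COCH, which encodes the extracellular protein cochlin, was at 17.7, 16.7 and 16.7 CPM. SLC25A43, a member of the mitochondrial carrier family, was at 18.2, 15.1 and 16.7 CPM. SLCO3A1, an organic anion transporter, was at 17.2, 15.3 and 17.3 CPM, and DENND2D, a DENN-domain protein, at 12.5, 14.04 and 12.3 CPM. ILDR1, a protein of tricellular junctions, was at 12.2, 8.35 and 11.9 CPM. COCH, SLC25A43 and DENND2D also had no count in MR49F. The lower bounds of the folds of these named genes, against the floor of 3 counts, ran from 98.5 for ILDR1 to 149 for SLC25A43.

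TRIB2, a pseudokinase, had 1 LNCaP count against 33.6, 34.2 and 37.8 CPM in C4-2, and the ratio of pooled counts scaled by library size was 869.7 (95% interval 156 to 34370.0). PHF11, a PHD finger protein, had 1 LNCaP count against 16.1, 16.3 and 14.2 CPM and a ratio of 404 (95% interval 72.3 to 15970.0). LPL, lipoprotein lipase, had 3 LNCaP counts against 18.5, 21.9 and 23.2 CPM and a ratio of 166 (95% interval 56.5 to 804). These intervals cover counting error only. All 3 C4-2 libraries lay far above all LNCaP libraries for each, a gap that the rule for picking these genes largely fixed.

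DPP4, a cell-surface peptidase also called CD26, had the largest rise among genes of at least 1 CPM in LNCaP. LNCaP held 1.92, 1.59 and 1.93 CPM and C4-2 398, 411 and 410.2 CPM (log2 fold change 7.802, SE 0.126, adjusted p = 2.21e-20). The libraries within a line were nearly equal. MR49F held 4.27, 5.58 and 5.07 CPM, and the difference of C4-2 from MR49F also passed (adjusted p = 1.53e-20, in a contrast in which 61.0% of genes passed). The transcript that starts on the opposite strand beside it, DPP4-DT, rose from 0, 0.227 and 0 to 10.4, 10.9 and 8.01 CPM, and the next tested coding gene, GCG, was more than 2-fold higher. Whether counting used the strand is not given, so values of DPP4-DT and of other antisense genes are uncertain where they overlap a neighbour.

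**Figure D2:**
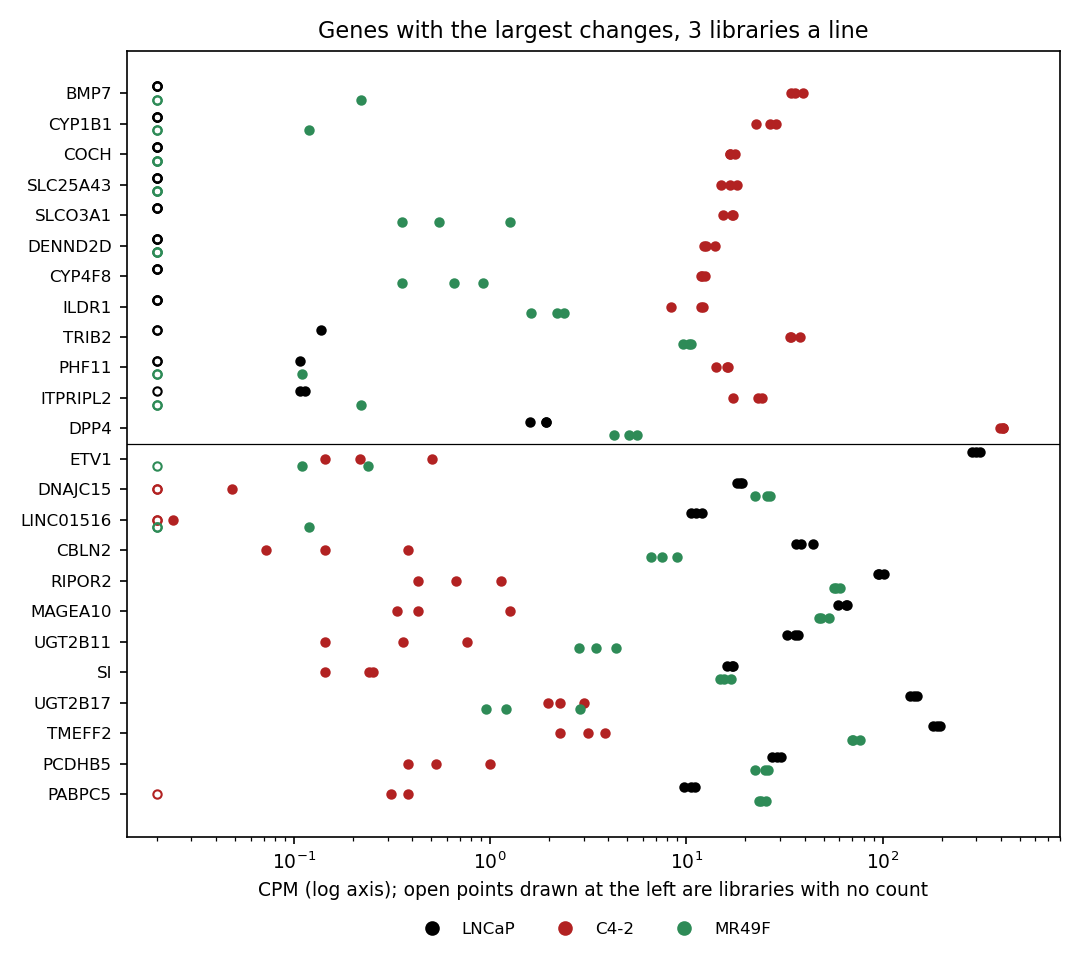
CPM (horizontal log axis) in each of 9 libraries for the 12 genes with the largest log2 fold change in each direction among those averaging 10 CPM or more in the higher line. Dark points are LNCaP, red C4-2 and green MR49F, and open points at the left edge are libraries with no count. In every row the 3 red points are clear of the 3 dark ones, as the choice of genes required. BMP7, CYP1B1 and COCH have no LNCaP count.

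Among genes lost in C4-2, ETV1 stood first. ETV1 (ENSG00000006468, chromosome 7, 13891228 to 13991425), an ETS transcription factor that is known to be rearranged in LNCaP, was at 313, 300.2 and 287 CPM in LNCaP and 0.216, 0.506 and 0.143 CPM in C4-2 (log2 fold change -10.18, SE 0.177, adjusted p = 4.88e-20). In counts these were 7654 over the LNCaP libraries and 14 over the C4-2 libraries. MR49F was low too, at 0.109, 0.237 and 0 CPM, and C4-2 did not differ from MR49F beyond the threshold (adjusted p = 0.248).

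DNAJC15, a co-chaperone of the mitochondrial inner membrane, was at 19.2, 18.8 and 18.2 CPM in LNCaP and left 2 counts in C4-2, both in the deep library. Its pooled ratio of LNCaP to C4-2 was 530.4 (95% interval 146 to 4392). Here MR49F kept the transcript, at 25.6, 22.3 and 26.7 CPM. The other genes off in C4-2 were LINC01516, TLL1, EPHA7, PDE3A and TWIST1. TLL1, a metalloprotease of the BMP1 family, had 186 LNCaP counts and none in C4-2, at least 138-fold lower. EPHA7, an ephrin receptor, went from 6.195, 5.11 and 8.96 CPM to 1 count, and TWIST1, a helix-loop-helix transcription factor of mesenchyme, from 5.66, 6.25 and 5.38 CPM to 2 counts.

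Several lost genes were well expressed in LNCaP. RIPOR2, an inhibitor of the small GTPase RhoA, fell from 95.2, 102 and 96.2 to 0.672, 1.14 and 0.429 CPM (log2 fold change -7.08, SE 0.153, adjusted p = 1.47e-18). CBLN2, a secreted synaptic organiser, fell from 36.3, 38.2 and 44.1 to 0.0721, 0.3796 and 0.143 CPM. MAGEA10, an X-linked cancer-testis antigen, fell from 65.7, 59.1 and 65.1 to 0.336, 1.26 and 0.429 CPM. TMEFF2, a transmembrane protein of prostate and brain, fell from 181, 190.3 and 196 to 3.87, 2.28 and 3.15 CPM (log2 fold change -5.78, SE 0.127, adjusted p = 1.47e-18). MR49F kept 58.4 CPM of RIPOR2 and 72.3 CPM of TMEFF2. SI, the sucrase-isomaltase of the gut brush border, fell from 16.02, 17.04 and 17.2 to 0.2402, 0.253 and 0.143 CPM, and PABPC5, a poly(A)-binding protein, from 11.1, 9.77 and 10.6 to 0.312, 0.3796 and 0 CPM.

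The sequence around the start of 5 genes is shown because they include genes gained (DPP4, and HOXA13 and NNT, described below) and lost (DNAJC15 and SI) and differ in CpG content. Each line gives RefSeq sequence of build GRCh38.p14 from 250 bases before the start to 50 after it, read 5′ to 3′ on the gene's strand, with every CG dinucleotide in capitals. DPP4 lies on the minus strand at chr2:162074166-162074465, HOXA13 on the minus strand at chr7:27200042-27200341, NNT on the plus strand at chr5:43602425-43602724, DNAJC15 on the plus strand at chr13:43023336-43023635 and SI on the minus strand at chr3:165078447-165078746.
DPP4: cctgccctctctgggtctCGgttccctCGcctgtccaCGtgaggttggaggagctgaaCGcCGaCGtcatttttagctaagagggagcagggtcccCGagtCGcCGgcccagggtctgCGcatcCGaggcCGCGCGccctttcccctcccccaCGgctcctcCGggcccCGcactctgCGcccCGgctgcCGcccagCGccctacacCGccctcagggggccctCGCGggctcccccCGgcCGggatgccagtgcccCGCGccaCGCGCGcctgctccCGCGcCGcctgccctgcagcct
HOXA13: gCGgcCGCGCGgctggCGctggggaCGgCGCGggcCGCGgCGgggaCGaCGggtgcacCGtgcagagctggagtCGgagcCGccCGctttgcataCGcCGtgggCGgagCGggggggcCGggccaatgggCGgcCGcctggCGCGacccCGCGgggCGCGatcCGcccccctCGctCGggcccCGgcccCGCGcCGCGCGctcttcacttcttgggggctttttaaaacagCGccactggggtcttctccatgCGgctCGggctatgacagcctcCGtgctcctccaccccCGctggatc
NNT: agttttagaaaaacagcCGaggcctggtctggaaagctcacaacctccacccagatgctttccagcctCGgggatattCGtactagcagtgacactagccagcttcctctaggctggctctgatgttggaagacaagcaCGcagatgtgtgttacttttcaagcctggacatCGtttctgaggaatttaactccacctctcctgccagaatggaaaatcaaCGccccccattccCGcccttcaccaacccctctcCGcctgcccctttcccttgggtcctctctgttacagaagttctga
DNAJC15: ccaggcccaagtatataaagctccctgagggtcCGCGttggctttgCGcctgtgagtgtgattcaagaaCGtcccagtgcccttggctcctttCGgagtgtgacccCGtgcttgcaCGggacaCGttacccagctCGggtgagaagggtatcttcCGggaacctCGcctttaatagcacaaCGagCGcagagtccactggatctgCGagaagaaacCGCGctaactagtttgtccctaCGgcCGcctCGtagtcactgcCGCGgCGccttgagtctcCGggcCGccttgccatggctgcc
SI: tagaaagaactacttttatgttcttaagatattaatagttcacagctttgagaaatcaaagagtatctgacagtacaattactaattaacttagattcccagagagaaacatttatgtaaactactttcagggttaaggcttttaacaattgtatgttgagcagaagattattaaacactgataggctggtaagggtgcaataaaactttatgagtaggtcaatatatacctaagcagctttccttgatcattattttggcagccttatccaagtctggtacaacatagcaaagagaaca
The DPP4 window holds 34 CG dinucleotides, that of HOXA13 44, that of NNT 8, that of DNAJC15 24 and that of SI 0. These genes were chosen with their values known.

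CpG content differed between sets of genes, which is given as a description. The CpG content was the number of CG dinucleotides over the number that the C and G content of the same 300 bases would give. Of 11947 tested protein-coding genes outside chromosome 8, whose promoters were not used here, 84.5% had a promoter in the table, and 83.8% of these had a ratio of at least 0.6. The share was 85.9% for genes that did not pass, 79.3% for genes higher in C4-2 and 84.9% for genes lower. The genes beyond 2-fold are not compared, because the check is void for the higher ones, of which 79.9% had a promoter in the table. The ratio was 0.84 for DPP4, 1.01 for HOXA13, 0.41 for NNT, 0.891 for DNAJC15 and 0 for SI.

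Transcripts of the extracellular matrix were among the largest gains in absolute amount. FN1 (ENSG00000115414, chromosome 2, 215360440 to 215436172), which encodes fibronectin, had the largest gain of any protein-coding gene and rose from 343, 347 and 344 to 4577, 5163 and 5122 CPM (log2 fold change 3.84, SE 0.0955, adjusted p = 1.06e-17). MR49F lay on the other side of LNCaP, at 79.9, 88.6 and 67.3 CPM. THBS1, the matrix glycoprotein thrombospondin 1, rose from 45.6, 45.9 and 44.2 to 762, 835 and 895 CPM (log2 fold change 4.196, SE 0.0896, adjusted p = 1.47e-18), against 0.4203 CPM in MR49F. The protease ADAMTS1 rose from 281 ± 11.97 to 1344 ± 81.4 CPM, and LAMC3, a laminin chain, from 0.658 ± 0.1704 to 37.05 ± 6.12 CPM. VIM, the intermediate filament vimentin, rose from 6.91 ± 1.52 to 53.6 ± 4.06 CPM. Of 60 tested integrin and matrix genes 37 were higher, 9 lower and 14 did not pass, with a median log2 fold change of 0.74. The integrin subunit ITGB1 was at 482 and 428 CPM (adjusted p = 0.107), and passed as lower without C4-2 replicate 2 (-0.26). Of 18 tested COL genes 12 were higher and 3 lower, among them COL16A1, which rose from 2.11 to 13.8 CPM, and COL3A1. COL1A1, a fibroblast collagen, fell from 25.4 to 16.5 CPM.

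The largest falls in absolute amount were in transcripts of varied roles. EEF2, the translation elongation factor, fell from 3008, 3178 and 2815 to 2286, 2176 and 2170.0 CPM, a small change in ratio (log2 fold change -0.44, SE 0.0744, adjusted p = 5.29e-05). SLC22A3, an organic cation transporter, fell from 626, 603 and 671 to 53.3, 50.6 and 57.1 CPM (log2 fold change -3.56, SE 0.0867, adjusted p = 8.52e-18). ADGRG6, an adhesion G protein-coupled receptor, fell from 800.5 ± 17.2 to 171 ± 29.8 CPM, and DSEL, a protein related to dermatan sulfate epimerase, from 497 ± 23.8 to 53.1 ± 5.33 CPM. CLTC, the clathrin heavy chain, fell from 870.0, 889 and 861 to 339, 427 and 385 CPM. PRUNE2, ARFGEF3 and NCAM2 had log2 fold changes of -0.69, -1.001 and -0.89. MME, the peptidase neprilysin, went the other way, from 1108 ± 23.1 to 2176 ± 160.2 CPM. Among the largest gains were also nuclear pseudogene copies of mitochondrial genes, led by MTCO1P12 (12500.0 to 26680.0 CPM). These copies took 2.92% to 3.09% of the counts of an LNCaP library and 4.38% to 7.45% of those of a C4-2 library, lowest in replicate 2. All 13 mitochondrially encoded protein genes were listed at 0 in every library, so reads of the copies and of the mitochondrial genome could not be separated.

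Cell-surface and adhesion genes changed in both directions. Of 31 prostate surface antigens tested, 21 were higher, 2 lower and 8 did not pass (median 0.62). TRPM8, a cold-gated channel, rose from 16.2, 16.5 and 16.4 to 293, 329 and 321 CPM, and SLC44A4, a choline transporter family member, from 75.3 ± 4.21 to 326 ± 31.7 CPM. FOLH1, the prostate-specific membrane antigen, held 1200.0, 1182 and 1234 CPM in LNCaP and 1191, 1176 and 1167 CPM in C4-2 (adjusted p = 0.725), and the libraries of the lines overlapped. ICAM1, an adhesion molecule induced by NF-kB, rose from 0.534, 0.568 and 0.551 to 43.8, 33.8 and 37.4 CPM (log2 fold change 6.11, SE 0.218, adjusted p = 5.08e-14), while DSC2, a desmosomal cadherin, fell from 469.8, 500.1 and 542 to 82.3, 105 and 90 CPM. NECTIN3 and ALCAM, which bind their partners on adjoining cells, rose by 4.23 and 1.65 on the log2 scale. Of 40 junction and adhesion genes 19 were higher and 8 lower (median 0.23).

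Luminal genes were mostly higher in C4-2, and steroid receptors and their cofactors mostly lower. Genes named here with under a 1.5-fold difference did not pass a test against a 1.5-fold change. Of 34 luminal genes 21 were higher and 7 lower (median 0.47). The number lower was 2 without LNCaP replicate 1 and 4 without LNCaP replicate 2 or 3 or C4-2 replicate 2 or 3, each left out alone. AZGP1, a secreted zinc-binding glycoprotein, rose from 25.4, 29.2 and 26.9 to 468, 337 and 376 CPM. Of 19 steroid receptors and cofactors 3 were higher and 11 lower (median -0.41, and -0.24 without C4-2 replicate 1). The coactivator NCOA2 fell from 178 ± 6.7 to 94.95 ± 20.6 CPM and GRHL2, an epithelial transcription factor, rose from 154 ± 2.02 to 348 ± 17.9 CPM. FOXA1, a pioneer factor of luminal cells, was at 399.9 and 376 CPM (adjusted p = 0.326). Of 36 androgen-induced genes 19 were higher and 6 lower (median 0.22), with TMPRSS2 at 236, 218 and 232 CPM against 68.8, 74.9 and 71.3, and ADAM7 lower, at 3.46 against 121 CPM.

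**Figure D3:**
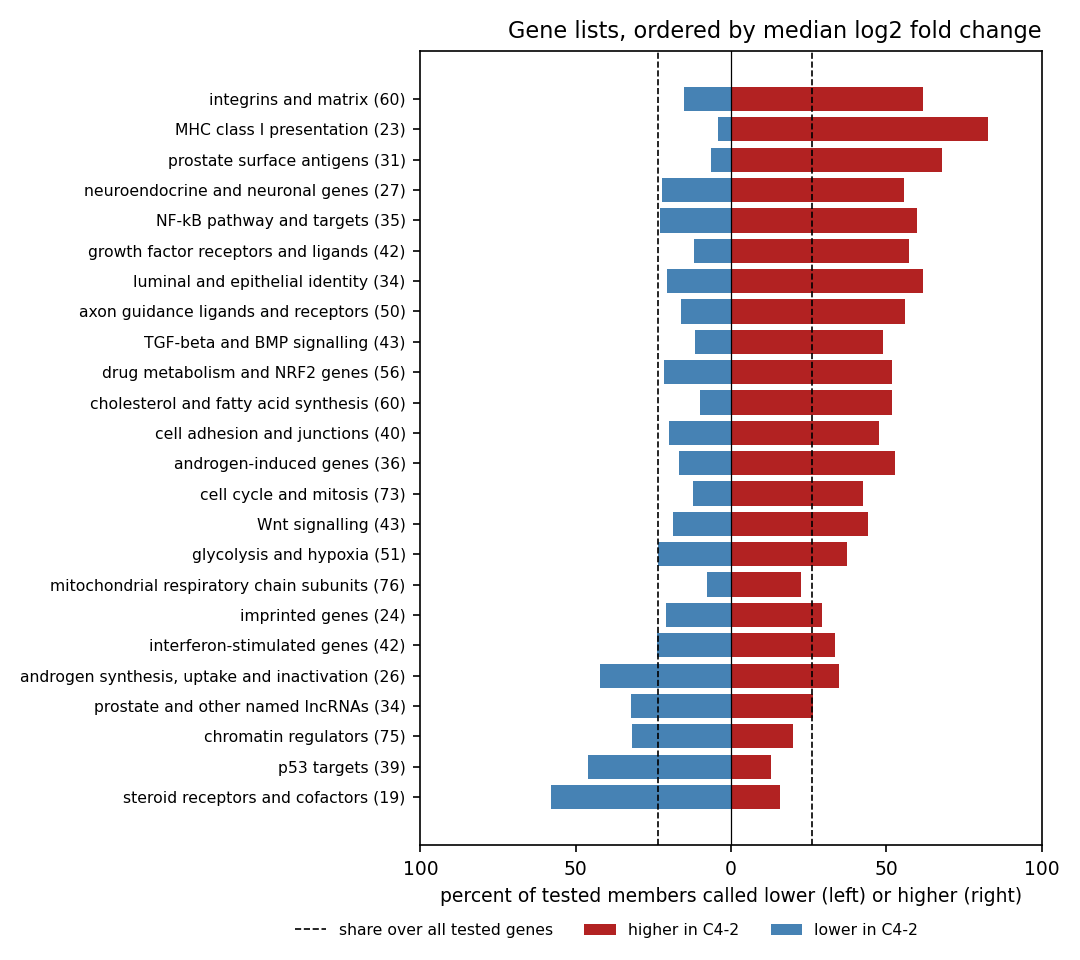
Percent of the tested members of 24 gene lists that passed as higher (red, to the right) or lower (blue, to the left) in C4-2, with the number of tested members in parentheses. Dashed lines mark the shares over all tested genes, 26.2% higher and 23.5% lower. MHC class I presentation has the longest bar to the right, 19 of 23 members, and steroid receptors and cofactors the longest to the left, 11 of 19.

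Lists of signalling genes held more higher than lower members. Of 50 axon guidance genes 28 were higher and 8 lower (median 0.41). The secreted ligand SEMA3C rose from 154, 143 and 157 to 469.8, 619.6 and 639 CPM and the ephrin receptor EPHA5 from 0.3204 to 15.6 CPM, while SEMA6A fell from 157 to 52.96 CPM. Of 42 growth factor ligands and receptors 24 were higher and 5 lower (median 0.56). IGFBP3, which binds insulin-like growth factors, rose from 30.8, 35.3 and 34.5 to 296, 247 and 304 CPM. Of 43 Wnt genes 19 were higher and 8 lower (median 0.03, and up to 0.21 without C4-2 replicate 1), with the receptor FZD4 up from 13.5 to 75.7 CPM and WLS, which carries Wnt ligands to the surface, down from 39.5 to 15.4 CPM. CTNNB1, beta-catenin, was at 417 and 426 CPM (adjusted p = 0.719).

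Of 60 cholesterol and fatty acid genes 31 were higher and 6 lower (median 0.28), among them ELOVL5, a fatty acid elongase (378, 392 and 400.2 to 1058, 1143 and 1128 CPM), and INSIG1, the sterol sensor partner, which rose by 1.55. Of 51 glycolysis and hypoxia genes 19 were higher and 12 lower, so that 60.8% passed, against 49.7% of all tested genes. The lactate exporter SLC16A3 rose from 1.18, 1.02 and 1.24 to 45.9, 37.5 and 43.9 CPM, and ARNT2, a partner of hypoxia factors, fell from 23.5 to 4.16 CPM. GAPDH was at 1751 and 1639 CPM (adjusted p = 0.391), and passed as lower without C4-2 replicate 1 (-0.21). Of 76 nuclear-encoded subunits of the respiratory chain 17 were higher and 6 lower (median 0.03), so that 30.3% passed against 49.7% of all tested genes. This balance rested on single libraries, with 13 higher and 17 lower (median -0.12) without C4-2 replicate 1 and 29 higher and 6 lower (median 0.12) without C4-2 replicate 2. Without LNCaP replicate 3, 11 were higher, and without LNCaP replicate 2 or C4-2 replicate 3, 3 were lower. Of 56 drug metabolism and NRF2 genes 29 were higher and 12 lower, with EPHX1, an epoxide hydrolase, up from 157 to 478 CPM.

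Of 73 cell cycle genes 31 were higher and 9 lower (median 0.15). CDK6, a kinase of the G1 phase, rose from 1.495, 1.14 and 2.48 to 10.8, 18.2 and 13.2 CPM and AURKA, a mitotic kinase, from 53.8 to 87.96 CPM. The p53 targets went the other way, with 18 of 39 lower and 5 higher (median -0.22), or 3 higher without LNCaP replicate 1 or C4-2 replicate 3. SESN1, a stress-induced inhibitor of growth signalling, fell from 111, 111 and 117 to 48.5, 53.3 and 53.5 CPM, CDKN1A, the inhibitor p21, from 114 ± 4.96 to 75.2 ± 7.71 CPM and MDM2, the ligase that degrades p53, from 380.2 ± 4.88 to 261 ± 23.98 CPM. Of 75 chromatin regulators 15 were higher and 24 lower (median -0.12), so that 52% passed, near the share of all tested genes. Without C4-2 replicate 1 these were 18 and 21, with a median of -0.04. EZH2, the methyltransferase of Polycomb complex PRC2, rose from 70.8, 67.5 and 66.4 to 112, 114 and 117 CPM, and SMARCA4, a remodeller ATPase, fell from 208 to 148 CPM. Of 27 neuroendocrine and neuronal genes 15 were higher and 6 lower (median 0.61), while CHGA, a defining neuroendocrine granule protein, had no count. NLGN1, a synaptic adhesion protein, rose from 11.99 to 93.7 CPM. Of 24 imprinted genes 7 were higher and 5 lower, so that 50% passed, near the 49.7% of all tested genes. Among them MEST rose from 39.5 to 115 CPM and PEG3 fell from 192 to 35.9 CPM.

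Several gene families moved together, and these were picked after their values were seen. The clustered beta protocadherins, single-exon cadherins in tandem on chromosome 5, showed the clearest case. All 10 tested members of 16 in the table were lower by more than 2-fold, with a median of -3.10. PCDHB5 fell from 28.8, 30.4 and 27.3 to 0.528, 0.3796 and 1.002 CPM (log2 fold change -5.64, SE 0.192, adjusted p = 2.11e-15). PCDHB2 fell from 21.8, 20 and 19.2 to 2.14, 2.404 and 2.58 CPM. MR49F kept both, at 24.6 and 19.5 CPM, and over the 10 its median against LNCaP was -0.148. Not every member was kept there. PCDHB8 was at 3.32 CPM in LNCaP and 0.155 CPM in MR49F, and PCDHB16 at 2.01 and 0.346 CPM. For these C4-2 did not differ from MR49F beyond the threshold (adjusted p = 0.395 and 0.152). The call of PCDHB10, at under 1 CPM in both lines, was lost under 7 alternatives. Of 15 tested gamma protocadherins 11 were lower and 2 higher (median -1.44), with 1 higher without LNCaP replicate 2. PCDHGB5 fell from 9.61, 11.6 and 11.4 to 1.18, 2.28 and 2.29 CPM, and PCDHGC3 was at 14.2 and 13.2 CPM (adjusted p = 0.413). The gamma genes share their 3′ exons, so their single values are uncertain. A short way along the chromosome the pattern turned, and RELL2, FCHSD1, ARAP3 and PCDH1 were all higher by more than 2-fold, PCDH1 from 29.98 to 63.3 CPM.

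The UGT2B genes on chromosome 4 were low in C4-2, with all 5 tested members lower by more than 2-fold. UGT2B17 fell from 137, 145 and 149.8 to 1.97, 2.28 and 3.005 CPM, UGT2B15 from 100, 94.1 and 99.1 to 9.25, 8.48 and 8.16 CPM and UGT2B11 from 35.7, 37.3 and 32.4 to 0.3603, 0.759 and 0.143 CPM. MR49F was low too, at 1.68, 0.731 and 3.56 CPM in that order. The list of androgen synthesis, uptake and inactivation genes, which includes them, held 9 higher and 11 lower of 26 tested members (median -0.03). The UGT2B genes are near-identical copies in part, and the authors' counting could have split or dropped their reads.

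HOX genes, which encode homeodomain factors of body position, were mostly higher. Of 19 tested, 15 were higher, 1 lower and 3 did not pass (median 1.41), and 11 were higher by more than 2-fold. HOXA13 went from 2 counts in LNCaP to 9.58, 11.5 and 10.02 CPM in C4-2 and no count in MR49F. HOXA10 rose from 17.3, 19.5 and 19.7 to 62.2, 58.96 and 57.2 CPM (log2 fold change 1.67, SE 0.0999, adjusted p = 1.97e-11), against 6.53 CPM in MR49F. HOXB7 rose from 0.0712 to 4.28 CPM. The one lower member was HOXB13, the prostate homeobox gene, at 367, 388 and 374 CPM in LNCaP and 290.3, 264 and 252 CPM in C4-2. The calls of HOXB6, HOXB5 and HOXC13 were each lost without at least 1 of the libraries.

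Antigen presentation genes of both classes were mostly higher in C4-2. All 5 tested class I genes were higher, HLA-B from 22.6, 25.4 and 22.7 to 81.6, 60.9 and 75.3 CPM, and so was the loading chaperone TAPBP, from 61.8 ± 4.098 to 159.6 ± 12.03 CPM. Of 23 class I presentation genes 19 were higher and 1 lower (median 0.74). Of 8 tested class II genes 5 were higher and 2 lower. HLA-DRA rose from 0.961, 1.48 and 0.413 to 40.5, 30.6 and 38.2 CPM (log2 fold change 5.21, SE 0.2197, adjusted p = 7.09e-14). CD74, the invariant chain of class II, rose from 6 counts over the LNCaP libraries to 23.4, 20.6 and 19.5 CPM. CIITA, the activator of class II genes, was at 0.0919 CPM in LNCaP and 1.736 CPM in C4-2, from 2 and 92 counts at unequal depth. HLA-DMB, which loads peptide on class II, fell from 17.8, 19.9 and 19.2 to 3.27, 2.66 and 3.29 CPM. The summed immune markers were higher in C4-2 as well, at 4.68 to 6.29 CPM against 0.414 to 1.59 CPM, while PTPRC and CD3E had no count in any library. The part of this shift in the class II values was not tested. HLA genes differ between near-identical copies, which makes single values uncertain. Of 35 NF-kB genes 21 were higher and 8 lower (median 0.60), with TNFSF10, a death ligand, up from 0.305 to 10.1 CPM. Of 42 interferon-stimulated genes 14 were higher and 10 lower (median -0.03), so that 57.1% passed, against 49.7% of all tested genes.

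**Figure D4:**
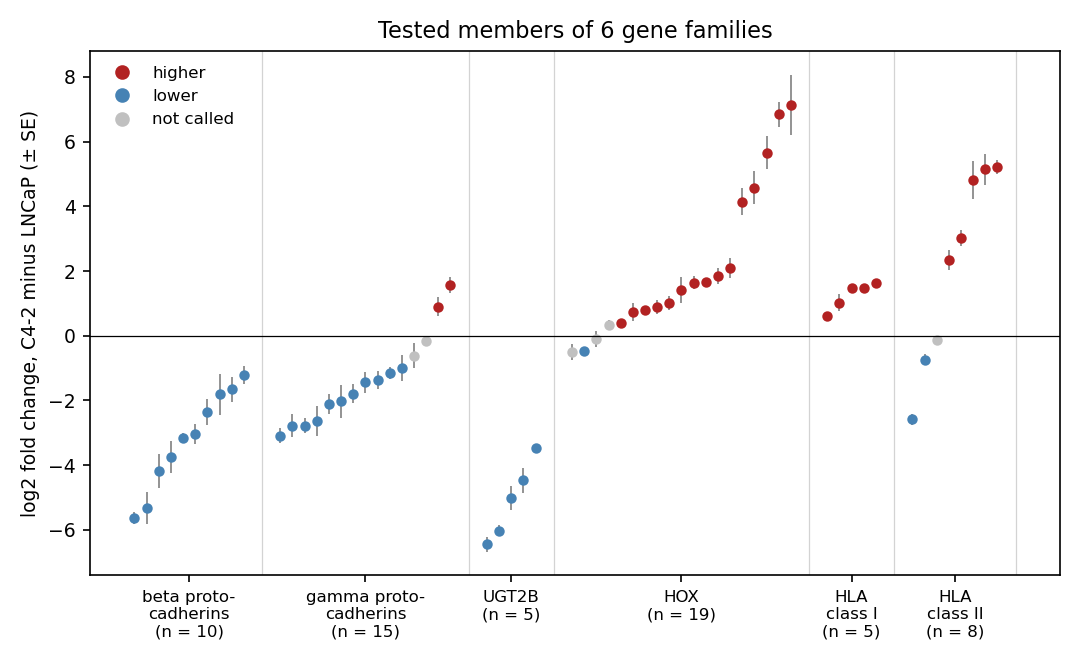
Log2 fold change of C4-2 over LNCaP (vertical axis, bars ± SE) for the tested members of 6 gene families, sorted within each. Red points passed as higher, blue as lower and grey did not pass. All 10 beta protocadherins and all 5 UGT2B genes lie below 0, and 15 of 19 HOX genes and all 5 class I genes passed above it.

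Zinc finger genes shifted by a small amount in 1 direction. Of 451 tested genes named ZNF, 200 (44.3%) were lower and 34 higher in C4-2, with a median of -0.28, but only 30 fell by more than 2-fold. Over all tested genes 23.5% were lower and 26.2% higher. On chromosome 19 the windows at 20 to 30 and 50 to 60 Mb had medians of -0.31 each, with 24 of 50 and 103 of 213 genes lower. The number of ZNF genes in these windows was not counted, and the part of such regional shifts in the ZNF values was not tested. In MR49F against the same LNCaP libraries their median was -0.27.

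Some neighbouring genes changed together. A run was defined, after the data were seen, as at least 4 adjoining tested genes that all passed beyond 2-fold in 1 direction. There were 12 higher runs with 61 of the 1405 genes higher beyond 2-fold. The 6 lower runs held 38 of the 629 genes lower beyond 2-fold. How many runs unrelated genes would give was not tested. The beta and gamma protocadherins made 2 of the lower runs and the UGT2B genes with TMPRSS11E another. On chromosome 6, IGF2R, SLC22A3, LPAL2 and 3 non-coding entries between and beside them formed a run over 159969099 to 160992342, in which IGF2R, the receptor that clears IGF2, fell from 638, 662 and 639 to 229.6, 297 and 279.9 CPM. On chromosome 9, JAK2, RLN2, RLN1, PLGRKT and CD274 were lower over 4984390 to 5470566. CD274, the immune checkpoint ligand PD-L1, fell from 16.1, 13.8 and 15.8 to 0.937, 0.253 and 0.859 CPM, RLN1, a relaxin, from 11.4, 13.97 and 13.1 to 0.817, 0.633 and 0 CPM, and JAK2, the cytokine receptor kinase, from 49.3, 44.4 and 46.5 to 15.9, 21.3 and 20.3 CPM. On chromosome 3 SI, SLITRK3, BCHE and ZBBX fell together. RLN1 and RLN2 are near-identical copies.

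Among higher runs, HOXA9, HOXA10, HOXA11, HOXA11-AS, HOXA13 and EVX1 made a run of 6 on chromosome 7. MALT1, a protease that relays signals to NF-kB, rose from 92.7, 83.7 and 84.9 to 325, 410.5 and 382 CPM with its neighbours on chromosome 18. The 2 longest, of 9 and 7 genes, lay on chromosome 13, from WASF3 to PDX1 and from LATS2 to MICU2. USP12, a deubiquitinase in the former, rose from 28.5, 26.2 and 25.2 to 67.3, 86.5 and 83.8 CPM, and SKA3, a kinetochore protein in the latter, from 26.3, 30.2 and 27.2 to 75.5, 82.6 and 72.7 CPM. NNT, the transhydrogenase that makes NADPH in mitochondria, and its antisense neighbour NNT-AS1 were nearly absent from LNCaP and present in both derivatives. NNT had 5 counts over the LNCaP libraries, 23.8, 31.6 and 25.6 CPM in C4-2 and 37.9, 38.6 and 43.5 CPM in MR49F.

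Wider windows of the genome were shifted as well. In 262 windows of 10 Mb with at least 20 tested genes, the median log2 fold change was -0.311 at the 5th percentile of windows and 0.36 at the 95th. The highest was at 20 to 30 Mb of chromosome 13, where 39 of 46 genes were higher and 1 lower, with a median of 1.21. There the C4-2 libraries, each set against the LNCaP mean, gave 1.09, 1.14 and 1.24. GTF3A, a transcription factor of 5S RNA genes, rose from 125 ± 3.53 to 388 ± 45.7 CPM and ZDHHC20, a palmitoyltransferase, from 110.5 ± 3.89 to 393 ± 65.5 CPM. At 30 to 40 Mb of chromosome 13 the median was 0.74, with HSPH1, a heat shock protein, up from 193 to 372 CPM.

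On chromosome 6, the windows at 40 to 50 and 50 to 60 Mb had medians of 0.87 and 0.99, with 62 of 78 and 20 of 24 genes higher. They hold HSP90AB1, a chaperone of the HSP90 family (987, 1006 and 981 to 1495, 1461 and 1388 CPM), MCM3, a subunit of the replicative helicase (114, 104 and 98.2 to 222, 221 and 214 CPM), and VEGFA, a growth factor of vessels (61.3 to 154 CPM). MR49F against LNCaP had medians of 0.12 and -0.07 in these windows, and 0.81 at 20 to 30 Mb of chromosome 13.

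The lowest windows were less extreme. At 20 to 30 Mb of chromosome 14 the median was -0.50, with 64 of 100 genes lower, among them HNRNPC, an RNA-binding protein (416, 414 and 404 to 262, 275 and 244 CPM), and APEX1, a DNA repair nuclease (270.4 to 176 CPM). The medians were -0.53 at 10 to 20 Mb of chromosome 4, -0.53 at 60 to 70 Mb of chromosome 18 and -0.51 at 60 to 70 Mb of chromosome X. Without C4-2 replicate 1 the chromosome 18 value was -0.31, and the C4-2 libraries there gave -0.52, -0.19 and -0.27. Over whole chromosomes, 44.7% of tested genes were higher on chromosome 13, 43.6% on 6 and 41.2% on 7, against 26.2% of all tested genes, and 47.8% were lower on chromosome 4, against 23.5%. Gene dosage was not measured.

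**Figure D5:**
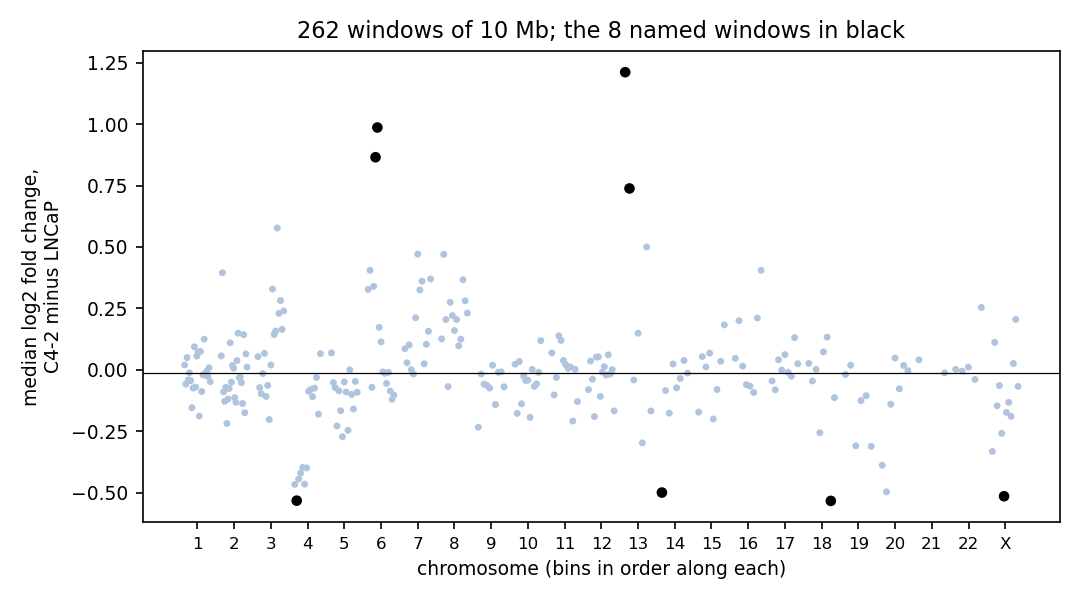
Median log2 fold change of C4-2 over LNCaP (vertical axis) in 262 windows of 10 Mb, grouped by chromosome and in order along each (horizontal axis). Black points are the 4 highest and 4 lowest windows, named in the text, and the line is the median of all windows. The highest points, on chromosomes 6 and 13, reach 0.74 to 1.21, and a cluster of low points stands on chromosome 4.

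Of 1660 long non-coding RNAs tested, 349 (21%) were higher and 292 (17.6%) lower, against 26.2% and 23.5% of all tested genes. Beyond 2-fold 18.6% passed, against 13.2% of all tested genes. Their median level was 2.83 CPM, against 37.9 CPM for protein-coding genes. Beyond 2-fold, 197 of the 1660 were higher and 111 lower. Of 4644 tested genes of any type at 1 to 10 CPM, 844 were higher and 366 lower beyond 2-fold. The share of 18.6% is therefore no sign of more frequent change at their level, and a comparison at matched level was not made. Of 34 named in a list of prostate and other known non-coding RNAs, 9 were higher and 11 lower (median -0.10). SCHLAP1, a prostate cancer transcript, fell from 51.7, 50.1 and 50.7 to 12.6, 14.8 and 15.4 CPM, and DRAIC from 12.7, 11.9 and 12.8 to 2.74, 4.18 and 2.72 CPM. PCAT19 rose from 0.429 to 8.65 CPM. MALAT1, a nuclear transcript, rose from 1629, 1423 and 1708 to 2970.0, 2829 and 3334 CPM, and NEAT1 was at 1593 and 1381 CPM (adjusted p = 0.0827). NEAT1 passed as lower without LNCaP replicate 2 (-0.29) or C4-2 replicate 3 (-0.30).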

How the data were processed

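Per the labels, libraries of poly(A) RNA came from a TruSeq stranded kit and were read from both ends on a HiSeq2500. The authors deposited raw counts for each Ensembl gene, with no normalization. Tools and build in the submitters' processing notes, given there with no role, are HTSeq 0.6.1, TopHat2, edgeR 3.12.1, FastQC 0.11.3 and GRCh38.p12. How counting treated strand, and which annotation release it used, is not given in the sources used here. Columns were matched to samples by name, and 3 further columns that match no sample title were not used. Of 57992 IDs, 57388 matched GENCODE 29, used for coordinates, and 56948 a table of gene names. Promoters came from RefSeq (GRCh38.p14), matched by symbol.

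Genes were tested with the quasi-likelihood method of edgeR 4.0.16 in R 4.3.3 (robust, TMM scaling, filterByExpr by line) on 9 libraries, 3 each of LNCaP, C4-2 and MR49F, with 1 mean per line and 6 residual degrees of freedom. A gene passed at a p under 0.05 after Benjamini-Hochberg adjustment over the 15407 genes. The common biological coefficient of variation was 0.0817. CPM use TMM-scaled library sizes. A gene with no count in a line was set against a floor of 3 counts over its libraries. The test was tested on simulated data.

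The genes, gene lists, families and windows were chosen with earlier results of these data known. The 24 gene lists and 4 marker lists are described by counts and medians. Named genes were the 12 that rose and the 12 that fell most (at least 10 CPM in the higher line, no overlap of replicates), the 10 with the largest CPM difference, in each list up to 4 with the lowest adjusted p and the gene of highest CPM that did not pass, in each symbol family up to 3 with the largest log2 fold change, in each window the 4 of highest CPM, the leading long non-coding RNAs and genes off in a line, and FOLH1. Some genes that the rule names are not reported here. Members of the protocadherin, HOX, UGT2B, HLA and ZNF families, of runs, and NNT, CD74 and CIITA were chosen after their values were seen. Genes of the Y chromosome are not named. Alternatives were DESeq2 1.42.0, voom of limma 3.58.1, RLE scaling, no filter on low counts, a test against a 1.5-fold change, at least 1 CPM in 3 libraries, a fit of the 6 libraries alone, the replicate number as a block, C4-2 replicate 1 thinned to 17.6% of its counts, and each library left out. Removal of nuclear copies of mitochondrial genes was chosen after seeing the data.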

Additional observations from a re-analysis of the deposited data

How the results depend on the processing

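The counts of genes higher and lower in C4-2 stayed within 1.5 times their main values with DESeq2, voom, RLE scaling, both other filters, the replicate block, only the 6 libraries, thinning, any library left out and without copies of mitochondrial genes, and 82.4% to 99.9% of the main calls were kept in the same direction under each of these. Against a 1.5-fold change, 1449 genes were higher and 672 lower, a stricter question by construction. Without a filter on low counts 2110 genes were over 2-fold higher, and the median log2 fold change over all genes was 0.1012. With on set at 2 CPM, 79 genes were off in LNCaP and 13 off in C4-2. Under the main rule, with on at 5 CPM, 30 genes were off in LNCaP and 6 off in C4-2. Leaving out 1 library under the main rule gave 31 to 46 and 6 to 13 genes. The 46 were off in LNCaP without LNCaP replicate 1, and the 13 off in C4-2 without C4-2 replicate 1, the deep library. The rule limits counts summed over a line, so leaving out a library of that line can loosen it. How much this added was not tested.

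Replicate numbers are shared by the lines, but same-numbered libraries did not deviate together (correlations of deviations -0.0423, -0.0207 and 0.0562), so the numbers do not pair them. With the replicate block 7460 genes passed, and 7368 of the 7658 main calls were kept.

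No window median took the opposite sign, but without a filter 2 were 0. There the medians were 1.305 and 0.86 on chromosome 13 (20 to 30 and 30 to 40 Mb), 1.02 and 1.36 on 6 (40 to 50 and 50 to 60 Mb), -0.37 on 14, -0.31 on X and 0 on 4 and 18. In windows of 20 Mb they were 1.04 for both on chromosome 13, 0.87 on 6 (50 to 60 Mb), -0.31 on 14, -0.29 on X and -0.26 on 18, and in windows of 5 Mb 1.01 on 13 (30 to 40 Mb) and -0.43 on X. With only the 6 libraries the value on 18 was -0.36. Leaving out a library gave -0.509 to -0.432 on X and -0.587 to -0.309 on 18. The cause of these shifts was not tested beyond the number of genes that enter a window.

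Leaving out 1 library moved some list medians near 0, to -0.095 to 0.075 for interferon-stimulated, -0.019 to 0.067 for imprinted, 0.004 to 0.067 for glycolysis and hypoxia, -0.052 to -0.007 for androgen synthesis and -0.167 to -0.012 for listed non-coding RNAs.

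The 1 deep C4-2 library, the reads shared by near-identical genes and the unknown strand setting limit single values, and genes under about 1 CPM rest on few counts in the shallow libraries.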

Other observations

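Further families are described by their counts, beside 26.2% of all tested genes higher and 23.5% lower. Of 17 tested genes with a symbol starting ST and a digit, most of them sialyltransferases, which add sialic acid to glycans, 9 were higher and 3 lower in C4-2. ST6GALNAC1 was at 13.2, 14.3 and 13.8 CPM in LNCaP and 83.3, 71.1 and 75.4 CPM in C4-2 (log2 fold change 2.48, SE 0.105, adjusted p = 7.09e-14), ST6GAL1 rose from 1.31 to 12.5 CPM and ST8SIA5 from 0.344 to 5.86 CPM. Of 12 tumour necrosis factor receptor genes 6 were higher and 1 lower, with TNFRSF14, a receptor of immune cells and epithelium, at 1.495, 0.341 and 0.413 and 18.7, 15.4 and 22.5 CPM. The interleukin receptor IL6R rose from 65.2, 68.3 and 66.6 to 161, 175 and 185 CPM. Among 10 OSBPL genes, whose products carry lipids between membranes, 3 were higher and 3 lower, shares near those of all genes, and OSBPL8 fell from 526, 506 and 501 to 124, 192 and 164 CPM.

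Of 12 RGS genes, which shorten G protein signals, 5 were higher and 2 lower, with RGS11 rising from 2.74 to 9.28 CPM and RGS12 falling from 22.9 to 17.2 CPM. Of 10 DHRS genes, short-chain dehydrogenases, 5 were higher and 4 lower. DHRS2 fell from 6.73, 8.29 and 8.82 to 2.76, 2.404 and 2.003 CPM, and DHRS3, which reduces retinal, rose from 17.7, 18.97 and 18.6 to 42.97, 31.2 and 36.5 CPM.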
